A study of Bos grunniens and Bos grunniens x Bos taurus with 2 samples.

Results

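The cells described here are the yak spermatogonia (SPGs), the 325 cells of cluster 1 and the 161 cells of cluster 4 that the study's table of germ cells lists with the type SPG. Each listed barcode was found in the deposited yak library and passed the quality limits. They make up 4.71% of the 10324 yak cells within these limits, in a library of 11991 cells and a series of 20921. Testis tissue of 1 sexually mature yak, a 4-year-old male by the study's methods, was frozen, thawed, digested with enzymes and captured in droplets as 1 library. A second library, from the testis of 1 sexually mature cattle-yak (the hybrid of cattle and yak), has no typed cells in the table used here. A total of 24 barcodes occurred in both libraries, none of them an SPG barcode. The unit throughout is the UMI, a tag that marks 1 captured RNA molecule, and levels are UMIs of a gene per 1000000 UMIs of the group of cells (CPM).

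Spermatogonia are the germ cells on the basement membrane of the seminiferous tubule. A small stem cell pool (SSCs) renews itself and supplies differentiating spermatogonia, which divide by mitosis several times before they enter meiosis as spermatocytes (SPCs) and later become spermatids (SPTs). Retinoic acid from the surrounding somatic cells is known to drive the step from undifferentiated to differentiating spermatogonia, and DMRT1 is known to hold back meiotic entry. The study's table gives 84 SSCs, 72 early-SPCs, 261 late-SPCs and 224 SPTs beside the SPGs, and the SPGs form 43.1% of its 1127 cells.

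The SPGs held 618792 UMIs, from 537 to 10535 per cell with a median of 979.5 UMIs and 575 genes. The other 9838 kept yak cells had a median of 2565 UMIs. Mitochondrial transcripts took 14.1% of the SPG UMIs, and a pair of features treated here as rRNA and counted apart from them took 10.4%. The clusters differed in depth. Cluster 1 had a median of 854 UMIs and 489 genes, and cluster 4 a median of 1410 UMIs and 854 genes. The rRNA features took 13.2% of the UMIs in cluster 1 and 7.65% in cluster 4. Because 1 animal gave 1 library and the types were clustered on these same cells, no test was run, and every interval below is at 95% and covers counting error only.

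The levels of the 3 marker genes of SPGs were taken first. *UCHL1*, a deubiquitinating enzyme long used as a spermatogonial marker, reached 1028 CPM in SPGs (949 to 1111, 636 UMIs). It was 281 CPM in SSCs, 133 CPM in early-SPCs, 12.6 CPM in late-SPCs and 66.3 CPM in SPTs, and 34.7 CPM in all other kept cells. SPGs were thus the highest of the 5 types, and the intervals of SSCs (203 to 378) and early-SPCs (94.4 to 183) did not meet that of SPGs. Since the study used *UCHL1* to name SPGs, this order is partly fixed by the naming and is no independent evidence for the type. *DMRT1*, a transcription factor of male germ cells, had 228 CPM in SPGs, 32.7 CPM in SSCs and 3.51 CPM in early-SPCs, the last from 1 UMI. *WDHD1*, a replication fork protein, did not separate SPGs from their neighbours, with 398 CPM in SPGs (349 to 450), 405 CPM in SSCs (311 to 519) and 439 CPM in early-SPCs (365 to 523). It was 50.4 CPM in late-SPCs and 28.5 CPM in the other kept cells.

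All 3 markers were lower in cluster 1 than in cluster 4. *UCHL1* had 375 CPM in cluster 1 (310 to 450) and 1691 CPM in cluster 4 (1549 to 1843). *DMRT1* had 86.6 and 371 CPM and *WDHD1* 215 and 583 CPM, in the same order. *TKTL1*, a transketolase-like gene that the study also used to name SPGs, had 237 and 603 CPM in the clusters, yet 1183 CPM in early-SPCs, so its highest level was not in SPGs. In T/NK-like cells, the most abundant class of this library, the levels of *UCHL1* and *DMRT1* were 13.4 and 1.23 CPM.

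**Figure D1:**
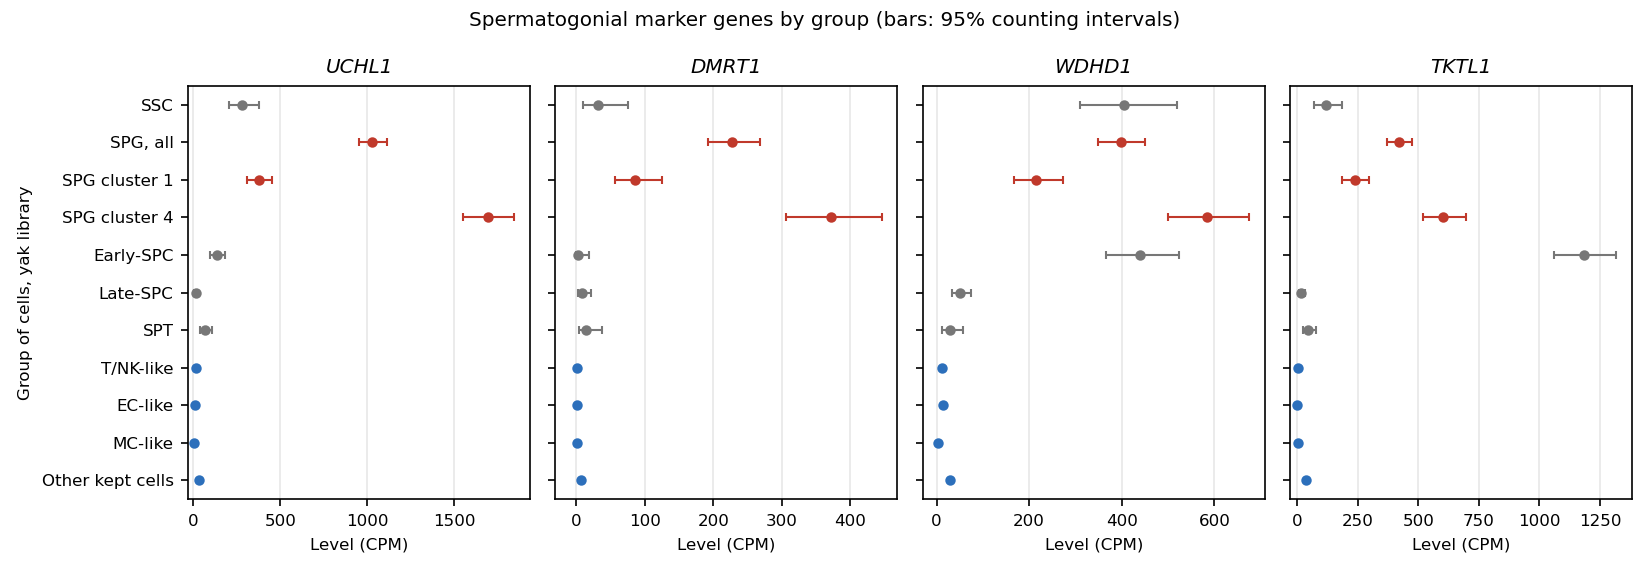
Levels of 4 spermatogonial genes in CPM (x axis, linear) in 11 groups of yak cells (y axis; the unlisted cells of the rebuilt clusters are not plotted), with bars for 95% counting intervals and with the SPGs in red, other germ cell types in grey and the remaining groups in blue. Of the groups plotted, SPG cluster 4 had the highest *UCHL1* and *DMRT1*, whereas the *TKTL1* level of 1183 CPM in early-SPCs exceeded that of every SPG group.

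Depth was then made equal by drawing 500 UMIs from each cell, which left out none of the SPGs. At this depth *UCHL1* had a UMI in 29.0% of SPGs (141 cells), in 18.8% of cluster 1 and in 49.7% of cluster 4. The share in T/NK-like cells, which should lack the gene, was 0.830%, at an unthinned median of 1939 UMIs against 979.5 in SPGs. Without thinning the shares were 45.7% of SPGs and 2.81% of T/NK-like cells. Over the general germ cell list, 28 genes in the annotation out of 34 such as the piRNA factors *MAEL* and *TDRD1*, 57.8% of SPGs had a UMI (53.3 to 62.3%, 281 cells). This share was 50.2% in cluster 1, 73.3% in cluster 4, 46.4% in SSCs, 63.9% in early-SPCs and 84.7% in late-SPCs. In EC-like (endothelial) cells it was 8.56%, and 409 of 3733 T/NK-like cells had such a UMI.

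Counted over 108 germ cell genes of 4 lists (general germ cell, undifferentiated, differentiating and meiotic), a cell thinned to 500 UMIs held a median of 3 germ cell UMIs in cluster 1, 5 in cluster 4 and 10 in early-SPCs. None was found in 7.69% of the cells of cluster 1 and in 1.24% of cluster 4. T/NK-like cells had a median of 0, with 50.1% of cells at 0. The plot of these counts places cluster 1 beside the SSCs, whose median was 2, and between T/NK-like cells and cluster 4.

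**Figure D2:**
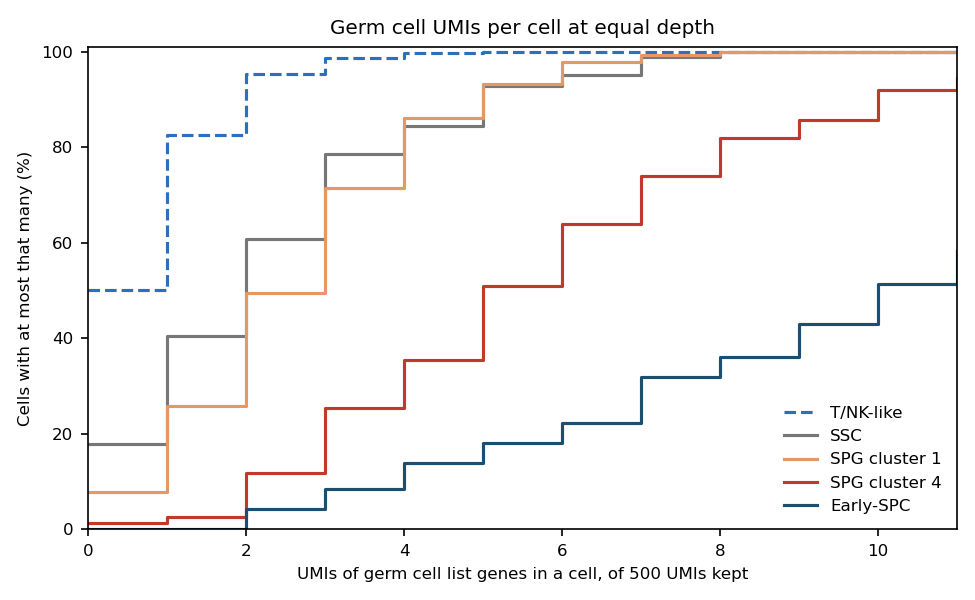
Cumulative share of cells in percent (y axis) against the number of germ cell UMIs among 500 UMIs of a cell (x axis), for T/NK-like cells (dashed), SSCs, the SPG clusters and early-SPCs. The curve of SPG cluster 1 starts at 7.69% and that of T/NK-like cells at 50.1%, and the curves of cluster 4 and of early-SPCs lie further to the right.

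The genes that stood out in SPGs were sought against all other kept cells. Of 3583 genes that reached 50 CPM on either side, 928 (25.9%) had at least 2 times the level in SPGs on the log2 scale with 1 CPM added to each side, and 356 (9.94%) were lower by as much. These shares describe how the cells were grouped and are the background for the counts of list genes that follow. A list gene that was low elsewhere entered the counts only where its SPG level reached 50 CPM, so the counts over genes past 50 CPM favour the group where a gene is high. The median log2 ratio of all tested genes was 0.36.

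Beside *DMRT1* (log2 ratio 4.87) and *UCHL1* (4.85), the genes with the largest ratios were *BEND4* (4.75), *RADX* (4.75), *ELAVL2* (4.65), *ACTL8* (4.58), *CRABP1* (4.53) and *DLK1* (4.38), followed by *SLPI*, a protease inhibitor, with 165 against 8.00 CPM. *RADX* encodes a single-strand DNA binding protein of replication forks, *ELAVL2* an RNA-binding protein and *CRABP1* a carrier of retinoic acid. *RADX* had 213 CPM in SPGs and 6.99 CPM in the other kept cells, and *ELAVL2* had 152 and 5.11 CPM. *CRABP1* had 162 CPM in SPGs, 13.1 CPM in SSCs and 31.6 CPM in early-SPCs. *DLK1*, a membrane protein that also stood on the Leydig cell list, had 139 CPM in SPGs. Of the 3 annotated genes of that list only *STAR* was at 0, and the list summed to 158 CPM in SPGs. An unnamed gene, ENSBGRG00000015123, had the largest ratio of the genes named by size, 4.98.

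Most germ cell genes past 50 CPM were higher in SPGs than in the other kept cells. In the general germ cell list, 15 of 17 genes past 50 CPM were higher and none lower, with a median log2 ratio of 2.71. They included *STK31*, a Tudor domain protein (359 against 23.5 CPM), *RBM46*, an RNA-binding protein needed for meiosis (175 against 15.0 CPM), *MAEL* (171 against 25.4 CPM) and *RNF17* (223 against 30.3 CPM). In the list of differentiating spermatogonia 8 of 11 genes were higher and none lower, among them *DMRTB1* (92.1 against 6.96 CPM), which controls the switch from mitosis to meiosis. Of these 8, *UCHL1* and *TKTL1* served to name SPGs and *DMRT1* is a marker of them. The count is thus partly fixed by the choice of markers. The list of undifferentiated spermatogonia gave 1 higher gene of 5, *SPOCD1*, a factor of piRNA-directed DNA methylation (72.7 against 3.93 CPM), and 1 lower gene, *ITGA6*. *KIT*, the receptor of differentiating spermatogonia, had only 22.6 CPM in SPGs. *DDX4*, *DAZL*, *SOHLH1*, *SOHLH2* and *STRA8* were not found by symbol and are not analysed here.

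Genes of DNA replication and cell division were also higher in SPGs than in the other kept cells. In the replication list 17 of 19 genes past 50 CPM were higher, the marker *WDHD1* among them, and none was lower. *MCM2*, a subunit of the replicative helicase, had 196 against 25.8 CPM. The mitosis list had 15 of 16 genes higher and none lower, led by *CENPF*, a kinetochore protein (1059 against 78.8 CPM), and with *TOP2A*, the topoisomerase that untangles chromosomes, at 464 against 71.7 CPM. Of the list of DNA methylation and chromatin genes, 15 of 21 were higher and none lower, such as *HELLS* (168 against 14.6 CPM), *UHRF1* (74.3 against 10.6 CPM) and *SMARCC1* (532 against 97.6 CPM). *DNMT3A* had 61.4 CPM against 42.6 CPM. In the meiotic list 13 of 15 genes were higher, among them *SYCP1* (323 against 44.4 CPM) and *SMC1B* (344 against 57.8 CPM). In the list of late spermatocyte and spermatid genes 3 genes passed 50 CPM, of which *HOOK1* was higher and *HMGB4* lower.

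Among the 4 ubiquitin hydrolases of the *UCHL1* family, 3 reached 50 CPM and *UCHL1*, itself a marker of SPGs, alone was higher. It gave 87.6% of the family's UMIs in SPGs. Of the retinoic acid and receptor list, 3 of 8 genes were higher (*RARB*, *CRABP1* and *ACVR2B*) and none lower. In the list of glycolysis and pentose phosphate genes *TKTL1*, which the study used to name SPGs, was the 1 higher gene of 7. All 25 genes taken from the study's longer list of SPG marker genes were higher, which is no independent evidence since they were chosen on these cells. Against SSCs 17 of the 25 were higher and none lower, and against early-SPCs 7 were higher, 7 lower and 11 neither.

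Against SSCs, the type placed before SPGs, the SPGs had higher levels of cell cycle genes. Of 3707 genes past 50 CPM, 772 (20.8%) were higher in SPGs and 426 (11.5%) lower, with a median log2 ratio of 0.25. With 153082 UMIs in SSCs, a count of 0 there allows up to 19.6 CPM. *FANCI*, a DNA repair gene of the Fanconi pathway, had 84 UMIs in SPGs and 0 in SSCs, at least 6.93-fold higher when SSCs are set at 3 UMIs, a floor that leaves out the counting error of the SPG level. The exact log2 interval, which holds both errors, begins at 2.46. *TOP2A* had 464 CPM in SPGs and 13.1 CPM in SSCs, from 2 UMIs, a ratio of 35.5 with a log2 interval from 3.28 to 8.20. *CENPF* had 1059 and 71.9 CPM, the latter from 11 UMIs. *UHRF1* had 46 UMIs in SPGs and 0 in SSCs, at least 3.79-fold higher at that floor, with a log2 interval from 1.57. *SLPI*, *MCM3*, *RBM46* and *MCUR1* each had 1 UMI in SSCs and from 65 to 108 UMIs in SPGs.

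By list, 14 of 16 mitosis genes, 12 of 19 replication genes and 9 of 15 meiotic genes were higher in SPGs than in SSCs. So were 7 of 11 genes of differentiating spermatogonia and 8 of 16 general germ cell genes. None of these lists had a lower gene. The 7 include the naming and marker genes *UCHL1*, *TKTL1* and *DMRT1*, so that count is partly fixed by the choice of markers. The summed mitosis list was 4030 CPM in SPGs and 823 CPM in SSCs. The summed general germ cell list was 2245 CPM in SPGs and 1254 CPM in SSCs, a log2 ratio of 0.84 (0.62 to 1.07). With every cell weighted equally this ratio was 0.62. The list of undifferentiated spermatogonia went the other way, with 653 CPM in SPGs and 1084 CPM in SSCs. Its lower genes were *SPOCD1* (72.7 against 203 CPM), *ID4*, an inhibitor of differentiation (45.2 against 183 CPM), and *ITGA6* (51.7 against 137 CPM), and *ZBTB16* was higher. *ITGA6* was also lower in SPGs than in the other kept cells. SSCs held 2058 CPM of the endothelial marker list as well, and the part of somatic RNA in these differences was not tested.

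The genes lowest in SPGs relative to SSCs were *DKK2* (log2 ratio −3.70), *PLTP* (−3.57), *IER3* (−3.54), *FBLN2* (−3.23), *TEK* (−3.23), *TNFSF10* (−3.04), *ADAMTSL5* (−3.01) and *LIMA1* (−2.97). *IER3*, an immediate early gene, had 196 CPM in SPGs and 2293 CPM in SSCs. *TEK* is the angiopoietin receptor of endothelial cells and also stood on the endothelial marker list. That list was 2058 CPM in SSCs, 501 CPM in SPGs, 1171 CPM in the other kept cells and, in EC-like cells, 3803 CPM, and *PECAM1* was its most abundant gene in SPGs, at 160 CPM. In SPGs 10 of 11 annotated genes of the list had a UMI, and *PLVAP* was at 0. Conversely, 9 of 10 smooth muscle genes were higher in SPGs than in SSCs. The part of these somatic genes in the comparison was not tested.

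Against early-SPCs, the type placed after SPGs, 1281 of 4058 genes (31.6%) were higher in SPGs and 1293 (31.9%) lower, with a median log2 ratio of −0.06. Early-SPCs held 284770 UMIs in 72 cells with an upper quartile of 7894 UMIs, so that the deeper cells carried much of their counts. The meiotic list was far lower in SPGs. Of 29 meiotic genes past 50 CPM, 26 were lower in SPGs and none higher. The list summed to 2948 CPM in SPGs and 17779 CPM in early-SPCs. *SYCP3*, a core protein of the synaptonemal complex, had 42.0 CPM in SPGs and 1787 CPM in early-SPCs. *HFM1*, a helicase of meiotic crossover formation, had 6.46 and 562 CPM, and *MEIOB*, a single-strand DNA binding protein of meiotic recombination, had 8.08 and 590 CPM. *RAD51AP2* had 1 UMI in SPGs and 211 in early-SPCs, a log2 ratio of −8.15 (−14.15 to −6.35). *SYCP1* and *SMC1B*, both high in SPGs against the whole library, were 323 and 344 CPM in SPGs against 1359 and 1784 CPM in early-SPCs.

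Several genes ran in the opposite direction. *FBXO9*, *CA3*, *BRD3*, *CCN2*, *MCUR1*, *DSCC1*, *TBC1D8* and *STOML2* had from 61 to 97 UMIs in SPGs and 0 in early-SPCs, which is at least 14.9-fold higher for *FBXO9* and at least 9.36-fold for *STOML2* at the floor of 3 UMIs. Their log2 intervals begin at 3.57 and 2.88. Of these, *CA3* and *CCN2* were higher still in the other kept cells (254 and 225 CPM) and in cluster 1 (176 and 167 CPM) than in cluster 4 (88.0 and 52.1 CPM). The unnamed ENSBGRG00000001531, which is on the study's list of SPG markers, had 254 UMIs against 0 and was at least 39.0-fold higher at that floor, with a log2 interval from 4.98. *FKBP4*, a co-chaperone of HSP90 and steroid receptors, had 832 CPM in SPGs and 35.1 CPM in early-SPCs. *UCHL1* was 7.70-fold and *DMRT1* 64.9-fold higher, the latter on 1 UMI in early-SPCs with a log2 interval from 3.52 to 11.3.

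The replication list was lower in SPGs than in early-SPCs, at 2602 against 3870 CPM, a log2 ratio of −0.57 (−0.68 to −0.46), with 5 of 22 genes higher and 9 lower. *MCM3*, *MCM7*, *CDT1*, *UHRF1* and *DSCC1* were the higher genes. *MCM6* and *RRM1* were lower. The mitosis list had 3 genes higher (*AURKA*, *CENPF* and *HMMR*) and 8 of 21 lower, with *TOP2A* at 464 CPM in SPGs and 1369.5 CPM in early-SPCs. For the general germ cell list, 3 of 18 genes were higher, namely *MAEL*, *TDRD1* and *HENMT1*, and 6 were lower. The background is 31.6% of all tested genes higher and 31.9% lower. The mitosis list summed to 4030 CPM in SPGs and 7241 CPM in early-SPCs, a log2 ratio of −0.85 (−0.93 to −0.76), and the general germ cell list to 2245 and 3115 CPM, a log2 ratio of −0.47 (−0.60 to −0.35). Somatic markers were also higher in SPGs than in early-SPCs, with 10 of 10 smooth muscle, 6 of 6 endothelial, 5 of 5 stromal and 3 of 3 pericyte genes past 50 CPM higher and none lower. The smooth muscle list summed to 6068 CPM in SPGs and 783 CPM in early-SPCs, and the endothelial list to 501 and 77.3 CPM. Their part in the comparison was not tested. With cluster 4 alone in place of all SPGs, the replication list differed from early-SPCs by a log2 ratio of −0.078 (−0.20 to 0.04). The general germ cell list then differed by −0.006 (−0.14 to 0.13) and the mitosis list by −0.28 (−0.37 to −0.19).

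**Figure D3:**
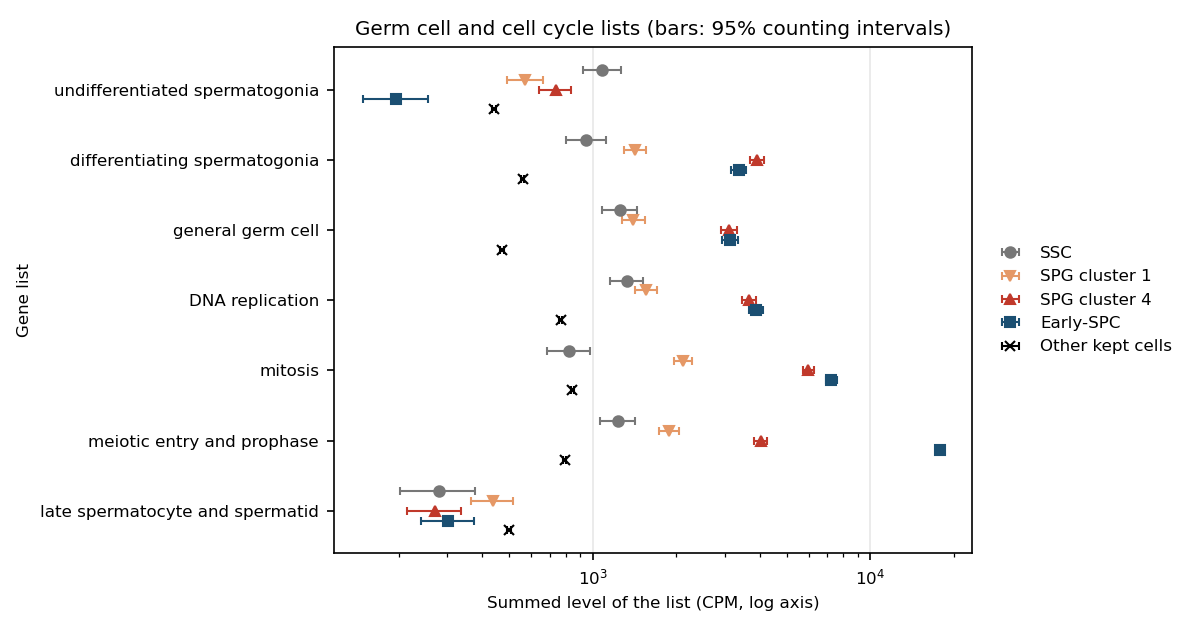
Summed level in CPM (x axis, log scale) of 7 germ cell and cell cycle lists (y axis) in SSCs, the SPG clusters, early-SPCs and other kept cells, with bars for 95% counting intervals. Cluster 4 lies near early-SPCs in the general germ cell and replication lists, whereas the meiotic list reaches 4024 CPM in cluster 4 and 17779 CPM in early-SPCs.

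Late-SPCs and SPTs had far higher levels of the genes of sperm formation. The list of late spermatocyte and spermatid genes summed to 354 CPM in SPGs, 3435 CPM in late-SPCs and 10570 CPM in SPTs, and 499 CPM in the other kept cells. *TUBA3D* and *GKAP1*, which are on the study's list of SPG markers, were 2532 and 2509 CPM in late-SPCs against 590 and 593 CPM in SPGs. *MAEL* was likewise higher in SPTs, at 335 CPM, than in SPGs, at 171 CPM.

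The SPGs also varied among themselves, between the 2 clusters. Of 3720 genes past 50 CPM, 823 (22.1%) were higher in cluster 4 and 461 (12.4%) lower, with a median log2 ratio of 0.43. *CRABP1* had 290 CPM in cluster 4 and 35.3 CPM in cluster 1, a log2 ratio of 3.00 (2.13 to 4.09). *DMRTB1* followed with 163 against 22.4 CPM, and *MYBL2*, a transcription factor of dividing cells, with 186 against 32.1 CPM. *CCDC34*, *NKAPD1* and *GLMN* had log2 ratios from 2.19 to 2.44. In cluster 4, 13 of 17 general germ cell genes, 9 of 13 genes of differentiating spermatogonia and 13 of 19 replication genes were higher. So were 17 of 23 mitosis genes and 10 of 16 meiotic genes. Of these lists, *CITED2* in that of differentiating spermatogonia was the 1 lower gene. The 9 include *UCHL1*, *DMRT1* and *TKTL1*, and the 13 replication genes include *WDHD1*. These naming and marker genes were already given above as lower in cluster 1. In the list of undifferentiated spermatogonia *SPOCD1* and *ADGRA3* were higher in cluster 4, and *ID4* and *ITGA6* lower. As shares of the level in cluster 4, that in cluster 1 was 22.2% for *UCHL1* (18.0 to 27.2%), 36.8% for *WDHD1*, 24.4% for *TOP2A*, 40.2% for *SYCP1* and 37.3% for *STK31*. Other list genes had higher shares, such as 68.3% for *TEX15*, 74.5% for *DNMT1* and 78.5% for *BRCA2* (54.8 to 112%).

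Several genes lower in cluster 4 are known from somatic cells or from the early response. *GAS6* (log2 ratio −4.17, from −6.62 to −2.68 on 3 UMIs in cluster 4), *MMRN1* (−4.02), *CCL21* (−3.86), *RGS5* (−3.00), *TGFBR2* (−2.85), *PTN* (−2.61), *PECAM1* (−2.55) and *MT2A* (−2.52) were the named genes with the smallest ratios. *MMRN1* and *CCL21* are lymphatic endothelial genes and *RGS5* is a pericyte gene. *MMRN1* had 542 CPM in cluster 1, 32.6 CPM in cluster 4 and 306 CPM in the other kept cells. *CCL21* had 250 CPM in cluster 1, 16.3 CPM in cluster 4 and 152 CPM in the other kept cells. In the early response and heat shock list 10 of 17 genes were lower in cluster 4, among them *FOS* (547 against 1905 CPM) and *JUN* (665 against 2729 CPM), and *FKBP4* and *HSPA4L* were higher.

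Of the marker lists of somatic and blood cells, that of smooth muscle had the highest sum in SPGs. All 12 genes of the list had a UMI in SPGs and none was at 0. The list summed to 6068 CPM in SPGs, 9046 CPM in cluster 1, 3043 CPM in cluster 4, 8480 CPM in the other kept cells and 40582 CPM in MC-like (smooth muscle) cells, with *TAGLN* as its most abundant gene. It was 1398 CPM in SSCs, 783 CPM in early-SPCs, 2247 CPM in late-SPCs and 3538 CPM in SPTs. Cluster 1 was thus at 1.07 times the level of the other kept cells, and 11 of 11 genes past 50 CPM were lower in cluster 4. The same order held for *MYH11*, smooth muscle myosin, at 1930 CPM in cluster 1, 590 CPM in cluster 4 and 1609 CPM in the other kept cells. At 500 UMIs per cell, *ACTA2* had a UMI in 36.6% of cluster 1, 16.1% of cluster 4 and 6.05% of T/NK-like cells.

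The other marker lists gave smaller sums. The T/NK-like list was 753 CPM in SPGs (686 to 825), 1000 CPM in cluster 1, 502 CPM in cluster 4, 7708 CPM in T/NK-like cells and 1980 CPM in the other kept cells. A UMI was found for 12 of its 14 annotated genes, *CCL5* made up 68.2% of it, and *LCK* and *GZMA* were at 0. The lymphatic list was 927 CPM in cluster 1, 71.7 CPM in cluster 4 and 554 CPM in the other kept cells, with 6 of 6 genes detected in SPGs. Macrophage genes summed to 30.7 CPM in SPGs and 119 CPM in the other kept cells, with *CD68*, *CD163*, *CD14* and *VSIG4* at 0 in SPGs. Of the Sertoli cell list, *GATA4*, *DHH*, *FSHR*, *INHBB*, *CITED1*, *NR5A1* and *PRND* were at 0, and *WT1* gave 61.9% of its 102 CPM. The sum of this list in the other kept cells was much the same, at 99.9 CPM. The epithelial list was higher in cluster 4, at 391 CPM, than in cluster 1, at 103 CPM, and was 196 CPM in the other kept cells, with 4 of 7 genes detected in SPGs and *KRT7*, *CDH1* and *CLDN4* at 0. Its most abundant gene in SPGs, *WFDC2*, had 280 CPM in cluster 4, from 86 UMIs, against 5 UMIs in cluster 1, and 37.4 CPM in the other kept cells. The Leydig cell list was 179 CPM in cluster 4 and 138 CPM in cluster 1, with overlapping intervals. The B cell genes *MS4A1*, *CD79A*, *CD79B*, *PAX5* and *BLNK* were at 0 as well. Even so, the B cell list summed to 17.8 CPM in SPGs and 18.0 CPM in the other kept cells. Whether these somatic transcripts came from the typed cells or from RNA of other cells was not tested.

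**Figure D4:**
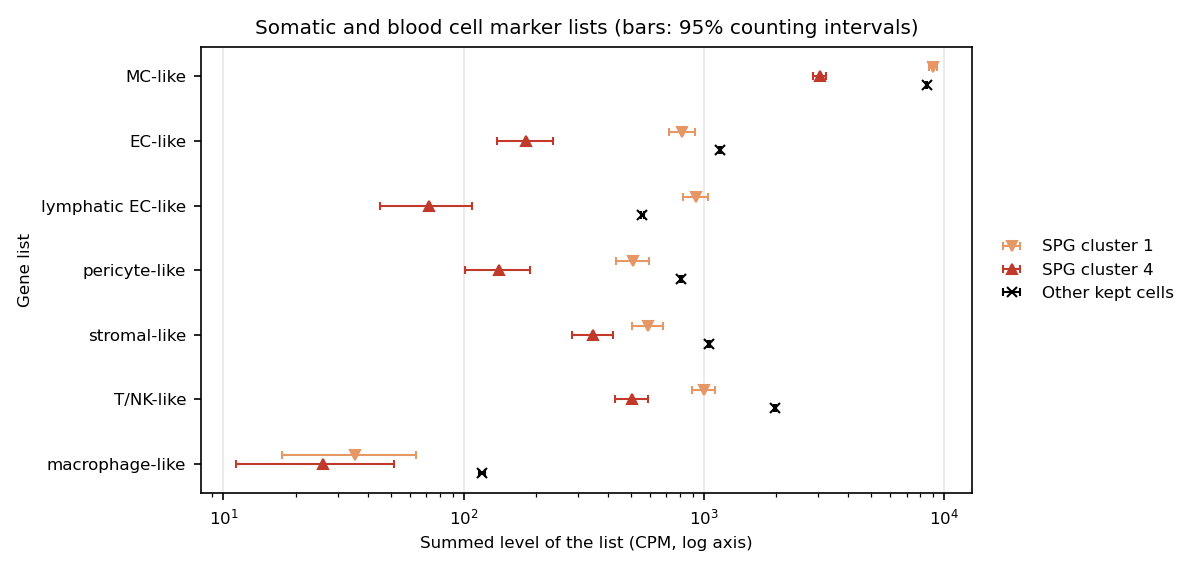
Summed level in CPM (x axis, log scale) of 7 marker lists of somatic and blood cells (y axis) in SPG cluster 1, SPG cluster 4 and other kept cells, with bars for 95% counting intervals. Cluster 1 lies near the other kept cells in the smooth muscle (MC-like) list, at 9046 and 8480 CPM, and exceeds them in the lymphatic list, whereas cluster 4 is lower than cluster 1 in the lists plotted except that of macrophages, where the intervals overlap.

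**Figure D5:**
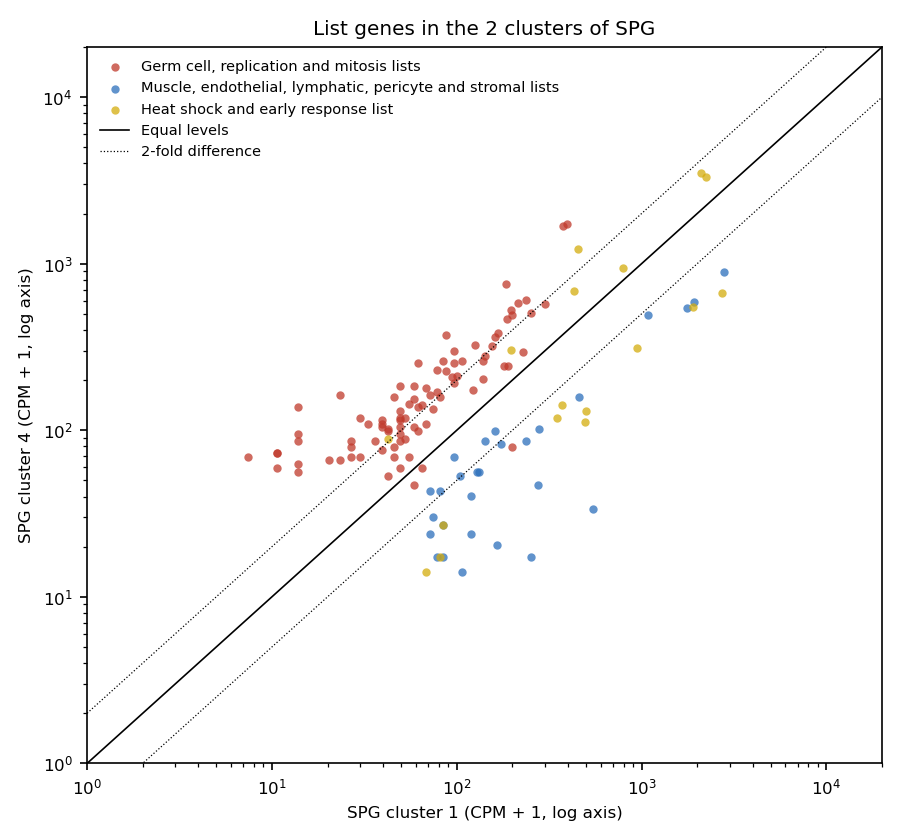
Level of each list gene of at least 50 CPM in either cluster, as CPM + 1 in SPG cluster 1 (x axis, log scale) and SPG cluster 4 (y axis, log scale), with a solid line of equal levels and dotted lines of a 2-fold difference. Germ cell, replication and mitosis genes (red) lie mostly above the line, somatic genes (blue) mostly below it, and the heat shock and early response genes (yellow) on both sides.

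The SPGs were then split by *UCHL1*, which was itself left out of the lists. The 91 cells of cluster 1 with a *UCHL1* UMI had 1286 CPM of the general germ cell list (1064 to 1539) and 9042 CPM of the smooth muscle list. The 234 cells without one had 1450 CPM (1295 to 1618) and 9047 CPM. The intervals also overlapped in 6 further lists, but the lymphatic list was lower in the cells with *UCHL1*, at 654 CPM (499 to 841) against 1041 CPM (910 to 1184). In cluster 4 the 131 cells with *UCHL1* had 3216 CPM of the germ cell list (3007 to 3437) and 2387 CPM of the smooth muscle list, against 2198 CPM (1732 to 2752) and 8215 CPM in the 30 cells without. The replication list was likewise higher in the cells with *UCHL1*, at 3785 against 2719 CPM. The mitosis list ran the other way, with 5739 CPM in the cells with *UCHL1* (5458 to 6030) and 7810 CPM in those without (6906 to 8800). The meiotic list was 3987 and 4310 CPM, with overlapping intervals. The cells without *UCHL1* were shallower, at a median of 1073 UMIs against 1611.

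Over all SPGs the marker level differed with depth. The 243 cells at or below the median depth had 601 CPM of *UCHL1* (493 to 725) and the 243 deeper cells 1205 CPM (1104 to 1312). Within cluster 1 the markers did not share 1 order. *UCHL1* was 434 CPM (321 to 573) in the cells at or below its median depth and 342 CPM (266 to 433) in the deeper ones. *WDHD1* was 274 and 181 CPM there and *DMRT1* 53.1 and 106 CPM, the latter in the order seen over all SPGs (93.7 and 283 CPM), with overlapping intervals within cluster 1 for each of the 3 genes. In cluster 4 *UCHL1* was 1385 CPM (1148 to 1656) and 1811 CPM (1638 to 1998). The smooth muscle list was higher in the deeper cells of cluster 1, at 10257 against 6913 CPM, and lower in those of cluster 4, at 2456 against 4535 CPM, without overlap of the intervals. The pooled values mix the clusters, which differ both in depth and in marker level.

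The kept yak cells were also clustered anew, with 299 list genes left out so that their lists could be read in the result. These were the genes of the germ cell naming lists and of the described gene groups. The marker lists of somatic and blood cells, that of smooth muscle among them, stayed in. Their levels in the rebuilt clusters are thus not independent of the clustering. A total of 202 SPGs (151 of cluster 4 and 51 of cluster 1) fell in clusters with at least 3 enriched germ cell markers. Most of cluster 1, 254 of 325 cells or 78.2%, fell in clusters without a name. Of all SPGs, 263 lay in 1 unnamed cluster of 1020 cells with a median of 967.5 UMIs, led by *FN1*, *UTP6*, *IER3* and *PECAM1*. With the list genes kept, 444 SPGs (284 of cluster 1) lay in germ-like clusters. The 670 cells of that unnamed cluster without a type in the table had 420 CPM of the general germ cell list against 1401 CPM in cluster 1, and 8356 CPM of the smooth muscle list against 9046 CPM. *UCHL1* was 55.4 CPM there and 375 CPM in cluster 1.

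The rebuilt cluster with most of cluster 4 held 200 SPGs among 254 cells and was led by *DMRT1*, *RADX*, *CRABP1* and *UCHL1*. It also held 46 cells that the study's table does not list. Their median depth was 7934 UMIs, and their *UCHL1* level of 1560 CPM and *DMRT1* level of 422 CPM were close to the 1691 and 371 CPM of cluster 4. Their smooth muscle list summed to 1300 CPM, against 3043 CPM in cluster 4. A further 792 yak cells lay above the upper limits of 21212 UMIs or 3637 genes. They held 78.7% of the library's 9508 *UCHL1* UMIs on 37.4% of its total UMIs, at 329 CPM, whereas the SPGs held 6.69% of the *UCHL1* UMIs. For *DMRT1* these shares were 82.6% and 5.98%. With these cells and those above the mitochondrial limit of 30% included among the other cells, 523 genes in place of 928 were higher in SPGs. In the cattle-yak library as a whole *UCHL1* was 339 CPM and in the whole yak library 156 CPM, which compares 1 library with 1 library.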

How the data were processed

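Cells of 1 yak testis and 1 cattle-yak testis were captured with the 10x Genomics system. The authors deposited UMI counts for every gene in each barcode, whole numbers without normalization, mapped to the yak genome BosGru3.0 by the study's methods. The file header names Cell Ranger 5.0.0, the submitters' processing notes name version 2.1.1, and the study's methods name yet another, so the version behind the counts is not settled. The annotation holds 26961 genes. SPG cells were joined by barcode to the study's table of typed germ cells, whose types came from clusters of the same cells. The members and gene lists were chosen with earlier results of these data known. Since the annotation comes without a genome or sequences here, no coordinates are given.

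The limits on yak cells were 2 standard deviations around the mean, for genes and for UMIs, and a mitochondrial share under 30%. As applied here, these limits, taken from the study's methods, kept 10324 of 11991 yak cells, more than the study states, so the share of SPGs among kept cells and the other kept cells depend on this application. Counts were summed per group and scaled to CPM with exact Poisson intervals (95%). Ratios had exact conditional intervals, shares exact binomial (Clopper-Pearson) intervals, and a pseudocount of 1 CPM entered both levels of a gene before its log2 ratio. A gene was called with a log2 ratio of at least 1 in size and at least 50 CPM on either side. Cells were thinned to 500 UMIs for shares. Leiden clustering (resolution 1, 2000 variable genes, 30 components, 15 neighbours) used scanpy 1.11.5 and igraph 0.11.9. Other steps used scipy 1.17.1, numpy 2.4.6, pandas 2.3.3 and Python 3.11.15. A cluster was named X-like after the list with most enriched markers (log2 ratio of at least 1, a UMI in 10% of its cells), with at least 3 of them, and stayed unnamed where another list tied or had more markers among the 10 leading genes. Clusters led by a germ cell list were called germ-like without the latter condition. A cluster with a median depth below that of all kept cells divided by 3 also needed a marker of its name among those 10 genes. Figures were drawn with matplotlib 3.10.9. Scrublet called 0 of 10324 kept cells as doublets and has not worked, so none was removed. The size rule and the ratio intervals were tried on simulated counts, and thinned cells were checked for their depth. Barcode joining, clustering, cluster naming and doublet scores were not tried on simulated data.

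Named genes were list genes, 25 genes of the study's list of SPG markers, the 15 largest ratios against other kept cells (at least 50 UMIs and a UMI in 10% of SPGs), and the 10 largest and 10 smallest in the other comparisons. Unnamed identifiers among them are mostly left out. Genes that lead a rebuilt cluster, such as *FN1*, were named after their values were seen. How UMIs of overlapping genes or near-identical copies were assigned is not given in the sources used here, so their levels are uncertain.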

Additional observations from a re-analysis of the deposited data

How the results depend on the processing

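Of 63 alternative values for 9 results, 30 kept within 1.5 times a count or within the interval of a value and 33 moved. None changed direction, which only the log2 ratios of the general germ cell and replication lists could do. The other results are counts, a share or a level. Genes higher in SPGs than in other kept cells numbered 928, against 1448 with SPGs of germ-like rebuilt clusters alone, 1481 with cluster 4 alone, 1501 and 508 at minimums of 20 and 100 CPM, 219 at a log2 ratio of 2 and 523 without quality limits. Against SSCs the count of 772 became 1204, 1236, 1503, 386 and 210 under the same settings but the last. Against early-SPCs, 1281 became 2496, 635 and 734 at 20 CPM, 100 CPM and a log2 ratio of 2, and for cluster 4 against cluster 1, 823 became 1354, 491 and 69. The share of SPGs with a UMI of the general germ cell list, 57.8%, was 81.9% at 1000 UMIs (237 cells), 78.6% unthinned, 71.3% in germ-like rebuilt clusters and 73.3% in cluster 4. With these last 2 choices the log2 ratio of this list to SSCs, 0.84, was 1.26 and 1.31, and that of the replication list to early-SPCs, −0.57, was −0.14 and −0.078. The T/NK-like list, 753 CPM in SPGs, was 998 CPM without mitochondrial and rRNA features, 585 CPM in germ-like rebuilt clusters, 640 CPM without the 10% of cells with the highest doublet scores (from the Scrublet run that called no cell, so that this is no check for doublets), 853 CPM with cells weighted equally, 239 CPM without *CCL5* and 502 CPM in cluster 4. The number of SPGs in germ-like rebuilt clusters, 202, was 444 with list genes kept and 464 at a resolution of 0.5. Cluster 4 alone and the reclustering settings were chosen after seeing the data, and the cause of these moves was not tested.

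No paired analysis was possible because the groups compared are sets of cells from 1 library of 1 yak, without replicates. The median of 979.5 UMIs per SPG limits shares of cells, and a level under 4.85 CPM in SPGs, or 19.6 CPM in SSCs, is below 3 UMIs.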
